A study of Mus musculus with 22 samples.

Results

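Homeobox genes encode transcription factors that bind DNA through a helix-turn-helix fold, the homeodomain. The 41 described here lie outside the Hox clusters: the LIM class (Lhx and Isl genes), the NK class, Six2 and Six3, the TALE class (Meis and Irx), the paired-like class (Alx, Prrx, Pitx, Otx and Gsc) and the Msx, Dlx, En, Emx, Barx, Evx, Gbx and Vax genes. Members were taken by gene symbol, and all 41 were found among the 55367 symbols of the count table. Of these, 37 had enough counts to be tested. The other 4 (Nkx2-2, Dlx5, Vax1 and Evx2) stayed at or below 0.368 CPM (the usual count scaled to a common library size) in every library.

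In the embryo these factors set position and cell type: Lhx2 and Six3 act in the eye and forebrain, Nkx2-5 in the heart, Pitx1 in the hindlimb, Msx1 and Msx2 in craniofacial tissue. In pluripotent cells many such genes carry H3K27me3, the repressive histone mark laid down by the Polycomb complex PRC2, whose main methyltransferase is EZH2. Their promoters are typically rich in CpG dinucleotides, the sequence feature to which PRC2 is commonly tied. Gbx2 is a different case, being itself expressed in embryonic stem cells (ESCs) as a LIF-responsive pluripotency gene.

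RNA-seq was measured in 22 mouse libraries in 10 groups. Wild-type E14 ESCs, a widely used mouse line, were grown in serum with LIF, a cytokine that holds ESCs undifferentiated, as a set titled ESC (E14_ESC, n = 3) and a set titled TG2A.NG.PB.ESC (TG2A_ESC, n = 2), and the latter cells also with LIF and the 2i pair of kinase inhibitors (TG2A_S2iL, n = 2). Ezh2-null E14 ESCs (genotype spelled Eeh2-null in the labels) were 1 clone, Ezh2KO-10, grown with LIF (KO10_SL, n = 3) or with LIF and 2i (KO10_S2iL, n = 2). The same clone after rescue was grown with LIF (KO10_SL_rescued, n = 2). Stem cells of the primitive endoderm (PrE), the layer of the blastocyst that later lines the yolk sac, were grown in their own culture. They came from wild-type E14 cells as the lines EPZ_iPrE1 and EPZ_iPrE2 (n = 2 each), which the study's plan describes as induced with EPZ-6438, an EZH2 inhibitor, and from wild-type C57 cells (C57_PrESC, n = 2), set beside C57 ESCs grown with LIF (C57_ESC, n = 2). The labels do not say that replicates were separate cultures, so p-values measure the spread between these libraries, which may be technical.

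The promoter stretches of 5 members are shown as examples. Lhx2, Meis1, Barx1 and Msx1 rose in the knockout in both media, and Meis1 and Msx1 also rose in all 3 PrE comparisons. Gbx2 had the highest level per exon length in E14_ESC and did not rise in the knockout. Sequences are from RefSeq on GRCm38.p6, the build also called mm10. Each runs 5′ to 3′ on the gene's strand, ends just before the annotated gene, and has each CpG (the letters CG) in capitals.
Lhx2, chr2:38339031-38339280, + strand: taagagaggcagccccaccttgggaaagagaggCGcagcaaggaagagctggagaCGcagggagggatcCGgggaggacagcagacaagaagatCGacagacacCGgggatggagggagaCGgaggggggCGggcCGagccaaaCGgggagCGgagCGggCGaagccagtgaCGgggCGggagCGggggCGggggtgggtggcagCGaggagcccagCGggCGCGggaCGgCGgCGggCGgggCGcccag
Meis1, chr11:19018986-19019219, - strand: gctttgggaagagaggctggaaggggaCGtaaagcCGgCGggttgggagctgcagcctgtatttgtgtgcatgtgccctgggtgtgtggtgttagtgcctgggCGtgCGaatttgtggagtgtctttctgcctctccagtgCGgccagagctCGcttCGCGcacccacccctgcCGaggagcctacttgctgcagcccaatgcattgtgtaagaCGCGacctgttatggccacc
Barx1, chr13:48662786-48662997, + strand: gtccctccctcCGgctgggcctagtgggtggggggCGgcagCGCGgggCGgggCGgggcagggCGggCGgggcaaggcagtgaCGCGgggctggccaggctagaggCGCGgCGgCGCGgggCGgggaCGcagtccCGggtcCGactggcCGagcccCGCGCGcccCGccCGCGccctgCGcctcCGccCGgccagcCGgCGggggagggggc
Msx1, chr5:37824586-37824835, - strand: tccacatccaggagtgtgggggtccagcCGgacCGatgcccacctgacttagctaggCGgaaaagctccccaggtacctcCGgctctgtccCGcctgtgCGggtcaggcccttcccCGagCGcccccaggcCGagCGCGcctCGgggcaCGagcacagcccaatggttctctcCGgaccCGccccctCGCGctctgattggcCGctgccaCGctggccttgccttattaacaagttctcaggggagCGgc
Gbx2, chr1:89931180-89931426, - strand: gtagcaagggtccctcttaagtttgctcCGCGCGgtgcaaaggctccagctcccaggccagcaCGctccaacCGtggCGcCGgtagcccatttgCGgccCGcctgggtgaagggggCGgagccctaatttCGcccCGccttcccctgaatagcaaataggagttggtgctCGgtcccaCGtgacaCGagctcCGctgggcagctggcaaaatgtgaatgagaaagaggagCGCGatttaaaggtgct

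In GENCODE M21, on the same build, these genes span chr2:38339281-38369733 (Lhx2), chr11:18879817-19018985 (Meis1), chr13:48662998-48666507 (Barx1), chr5:37820485-37824583 (Msx1) and chr1:89927956-89931179 (Gbx2). RefSeq promoter windows of 300 bases, from 250 before to 50 after a start site, were matched for 30 of the 41 members, with 31 windows. CpG numbers in them ranged from 6 (Lhx9 and Prrx1) to 50 (Barx1), with a median of 26. The median over all 32851 windows of the table was 7, and 16.9% of all windows held 26 or more. Of the 31 member windows, 29 were above the median of all windows. Barx1 stood at the top, with a number reached by 0.855% of all windows. The windows of Gbx2, Msx1 and Lhx2 (at the start shown) held 27, 29 and 34, and that of Meis1 held 15. Msx1, Lhx2 and Meis1 were called higher in the knockout and Gbx2 was not. Whether CpG number goes with the response was not tested. The CG letters are palindromic, so both strands are counted at once.

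Library totals ran from 13.6 M to 26.3 M estimated counts (M, mega-counts). Ezh2 itself, the targeted gene, held 4 counts over the 3 KO10_SL libraries and 6 over the 2 KO10_S2iL libraries, against 179.6 CPM on average in E14_ESC. After rescue it averaged 514 CPM, above E14_ESC (log2 fold change 1.52 ± 0.14 SE, adjusted p = 1.25e-04). The labelled cell types held against their markers: 10 PrE markers summed to 10634 to 14569 CPM in the 6 PrE libraries and to 133 to 646 CPM in the wild-type ESC libraries. A list of 8 pluripotency markers summed to 558 to 1144 CPM in the PrE libraries and to 3210 to 5376 CPM in the wild-type ESC libraries. Of these, Nanog was at 1.42 CPM or below in the PrE libraries, where Pou5f1 was at 435 to 807 CPM. Esrrb averaged 123 to 216 CPM in the PrE groups. Zfp42 averaged 54.5 and 53.7 CPM in EPZ_iPrE1 and EPZ_iPrE2, against 798 in TG2A_ESC, and 59.8 in C57_PrESC, against 70.6 in C57_ESC. A list of 15 fibroblast markers was uneven within pairs: it summed to 2536 CPM in C57_PrESC replicate 2 against 32.7 in replicate 1, to 420.1 in C57_ESC replicate 2 against 50.2 in replicate 1, to 217 in EPZ_iPrE1 replicate 1 against 39 in replicate 2, and to 346.9 in EPZ_iPrE2 replicate 2 against 76.6 in replicate 1.

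**Figure D1:**
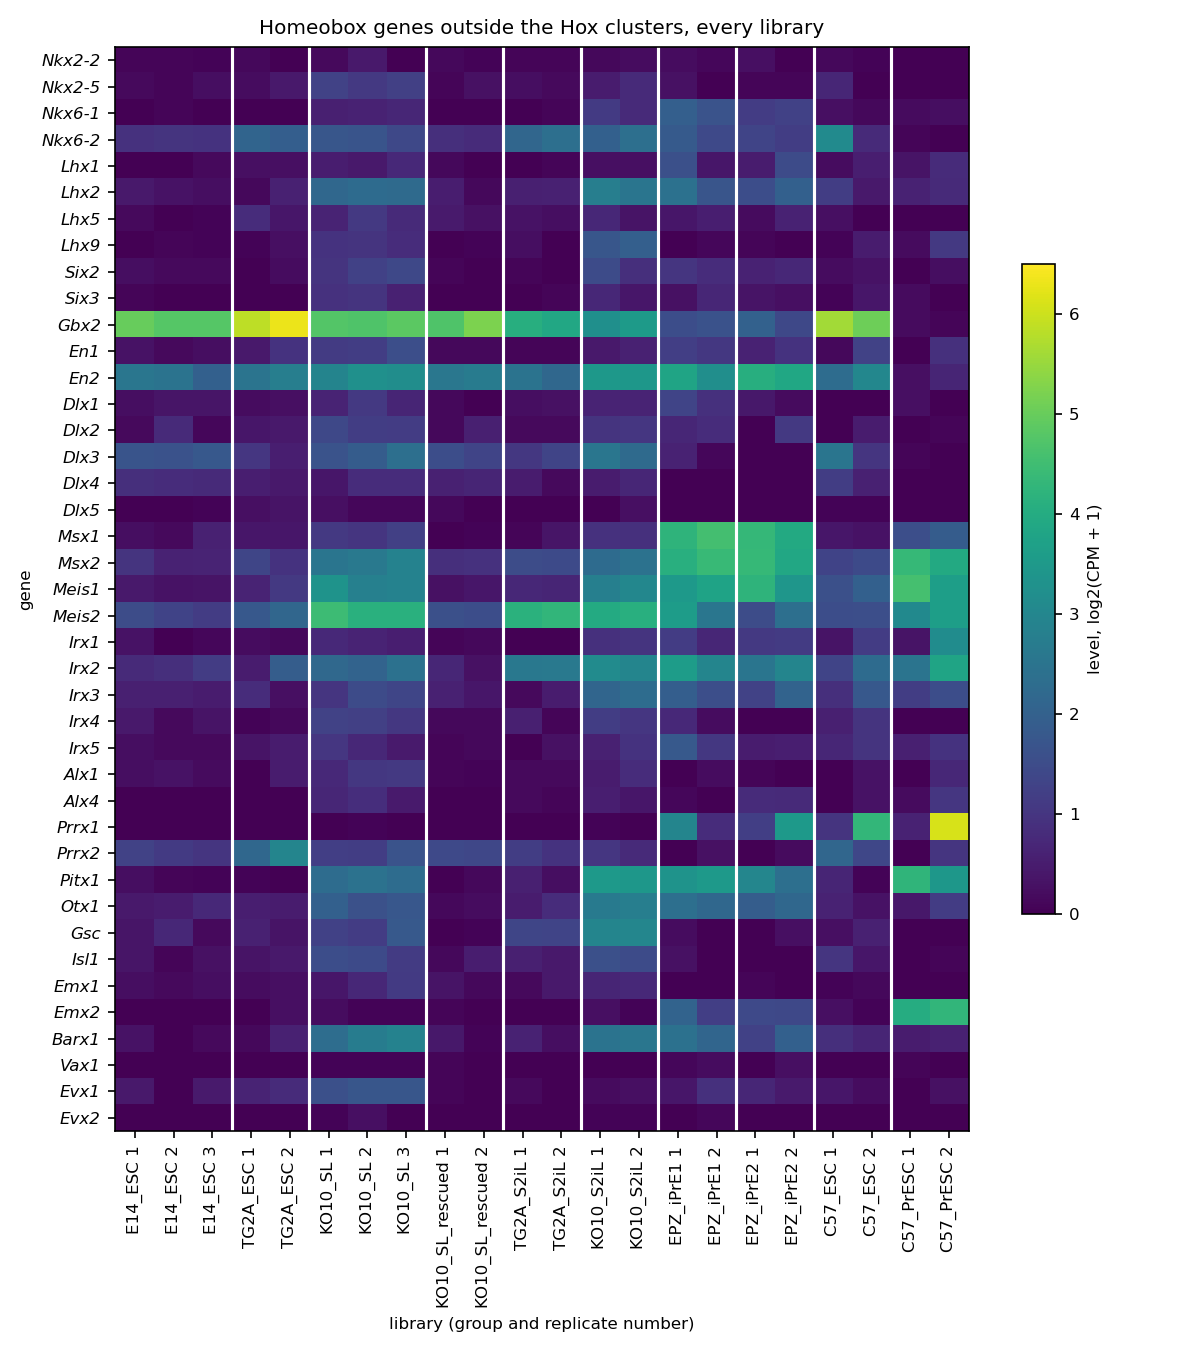
Levels of the 41 homeobox genes (rows) in the 22 libraries (columns, grouped; white lines part the groups) as log2(CPM + 1). Gbx2 is the brightest row in the E14_ESC, TG2A_ESC and C57_ESC columns, the 3 KO10_SL columns show many more genes than E14_ESC, and Prrx1 is bright in single libraries of a pair.

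In wild-type E14 ESCs few of the genes were on. In each E14_ESC library 5 or 6 of the 41 reached 1 CPM, and their levels summed to 42.4 to 50.2 CPM, of which Gbx2 alone gave 31, 26.8 and 26.5 CPM. Per kilobase of exon, Gbx2 was also first, at 12.9 CPM per kb, and En2, a midbrain and hindbrain factor, was next at 1.17. In the knockout 23 to 26 of the 41 reached 1 CPM and the sum was 111.8 to 118.3 CPM. In the rescued libraries 5 of 41 did, and the sum was 42.3 and 52 CPM. In TG2A_ESC, the other wild-type set with LIF, 7 of 41 reached 1 CPM in each library. Its sums were 81.1 and 110.9 CPM, the higher one close to those of the knockout, and Gbx2 averaged 67.8 CPM there.

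The question of the knockout comparison is which of these genes rise without EZH2. Of the 37 tested, 27 were called in KO10_SL against E14_ESC, all higher, at an adjusted p below 0.05 by edgeR's quasi-likelihood test over all 17547 tested genes. Over all those genes 48.6% were called, 25.8% higher and 22.7% lower. The median log2 fold change of the 37 was 2.44, against 0.07 over all tested genes. Called changes ranged upward from 0.92 on the log2 scale (En2). All knockout libraries lay above all E14_ESC libraries for 32 of the 37, and for 36.1% of all tested genes. They lay below for 0 of the 37, and for 30.7% of all tested genes.

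Among the LIM genes, Lhx2 stood at 3.49, 3.84 and 3.77 CPM in the knockout and at 0.359, 0.239 and 0.187 CPM in E14_ESC. All knockout libraries lay above all wild-type ones, and the log2 fold change was 3.83 ± 0.55 (SE), with an adjusted p of 2.94e-05. Isl1, a factor of motor neurons and heart progenitors, was at 1.91, 1.76 and 1.19 CPM against 0.299, 0.0598 and 0.224 (log2 fold change 3.00 ± 0.66, adjusted p = 0.00149). Lhx1, Lhx5 and Lhx9 were also called higher, at 0.368 to 1.1 CPM in the knockout libraries, with 2 or 3 counts each over the 3 E14_ESC libraries. For Lhx9 the ratio was 26.9 (95% counting interval 7.16 to 227). Counting intervals in the text cover counting error only.

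NK genes, Six2 and Six3 moved the same way at lower levels. Nkx2-5 was at 1.42, 1.1 and 1.36 CPM in the knockout and at 0.12, 0.0598 and 0.187 in E14_ESC, without overlap (log2 fold change 3.26 ± 0.84, adjusted p = 0.00442). Six2, a kidney progenitor factor, was at 0.975, 1.39 and 1.65 CPM against 0.18, 0.12 and 0.112 (3.25 ± 0.68, adjusted p = 9.15e-04). Nkx6-1 and Six3 each had 1 count over the E14_ESC libraries. Their ratios were 33.1 (counting interval 5.62 to 1342) and 48.1 (8.29 to 1931), both called. Nkx6-2 was not called: it stood at 2.36, 2.25 and 1.65 CPM against 0.898, 0.956 and 0.933, with an adjusted p of 0.0927.

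The TALE genes include Meis1 and Meis2, cofactors of Hox proteins. Meis2 was at 20.8, 16.5 and 16.4 CPM in the knockout and at 1.86, 1.49 and 1.23 CPM in E14_ESC (log2 fold change 3.56 ± 0.33, adjusted p = 3.37e-07). Meis1 was at 9.06, 6.13 and 6.36 CPM against 0.359, 0.239 and 0.261 (4.63 ± 0.40, adjusted p = 1.68e-07). The groups were far apart for both. Of the Iroquois genes, Irx2, Irx3, Irx4 and Irx5 were called higher by 1.67 to 2.33 on the log2 scale. Irx2 went from 0.719, 0.837 and 1.23 CPM to 3.62, 3.19 and 4.37. Irx3 went from 0.479, 0.478 and 0.411 CPM to 1.02, 1.8 and 1.57, and Irx4 from 0.359, 0.12 and 0.261 CPM to 1.42, 1.35 and 1.06. Irx5 went from 0.18, 0.12 and 0.112 CPM to 1.06, 0.654 and 0.382. Knockout libraries lay above wild-type ones for all 4. Irx1 was at 0.691, 0.572 and 0.466 CPM against 0.24, 0 and 0.0746 and was not called (adjusted p = 0.0713).

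In the paired-like class Pitx1 made the widest change among genes with more than 3 wild-type counts. It was at 3.94, 4.45 and 3.94 CPM in the knockout and at 0.18, 0.0598 and 0.0373 CPM in E14_ESC (log2 fold change 5.50 ± 0.65, adjusted p = 4.15e-06). Otx1, a forebrain factor, was at 2.97, 2.04 and 2.42 CPM against 0.359, 0.418 and 0.672 (2.30 ± 0.40, adjusted p = 1.88e-04). Gsc, a gene of the gastrula organizer, was at 1.38, 1.23 and 2.5 CPM against 0.299, 0.658 and 0.112 (2.31 ± 0.63, adjusted p = 0.00688). Knockout and wild-type libraries did not overlap for any of these. Alx4 had 0 counts in E14_ESC and 44 in the knockout, at least 12.2-fold higher with a floor of 3 counts over the group. Alx1 was called at an adjusted p of 0.0498. Prrx1 had 0 counts in E14_ESC and was at 0, 0.0409 and 0 CPM in the knockout. Prrx2 was at 1.3, 1.27 and 2.16 CPM against 1.44, 1.14 and 1.01, and was not called (adjusted p = 0.622).

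Of the remaining genes, Barx1, a factor of stomach and facial mesenchyme with the most CpG-dense window, was at 4.02, 5.68 and 6.32 CPM in the knockout and at 0.24, 0 and 0.112 CPM in E14_ESC (log2 fold change 5.44 ± 0.67, adjusted p = 6.08e-06). Msx2 was at 4.75, 5.15 and 6.32 CPM against 0.958, 0.538 and 0.56 (2.99 ± 0.27, adjusted p = 3.05e-07). Evx1, a primitive streak gene, was at 1.99, 2.33 and 2.33 CPM against 0.359, 0 and 0.373 (3.09 ± 0.72, adjusted p = 0.00211). In each case the knockout libraries were all higher. Msx1, En1, En2 and Emx1 were called as well. Msx1 was at 1.1, 1.02 and 1.36 CPM against 0.18, 0.12 and 0.523, and En1, a midbrain and hindbrain factor like En2, at 1.18, 1.27 and 1.95 CPM against 0.24, 0.12 and 0.187. En2 was already on in E14_ESC, at 4.91, 4.54 and 2.95 CPM, and stood at 6.62, 8.62 and 8.06 in the knockout. The Dlx genes, factors of branchial arches and interneurons, were not called by edgeR. Dlx3 was at 2.15, 2.74 and 4.15 CPM in the knockout and at 2.22, 2.09 and 2.46 CPM in E14_ESC, with overlap. Dlx1 and Dlx2 were at 0.569 to 1.1 and 1.23 to 1.67 CPM in the knockout, with adjusted p of 0.0562 and 0.0537, while the log2 fold change was 0.41 for Dlx3 and -0.31 for Dlx4. Emx2 stayed at or below 0.163 CPM in every KO10_SL library.

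Gbx2 did not follow the others. It was at 26.2, 25.1 and 27.9 CPM in the knockout and at 31, 26.8 and 26.5 CPM in E14_ESC. The groups overlapped and the log2 fold change was -0.09 ± 0.19, with an adjusted p of 0.713. Its value carries a limit: 43.5% of its exon length lies under D130058E05Rik, a gene on the opposite strand at 3.32 to 7.31 CPM in the E14_ESC libraries, and the strand setting of the counting is not given in the sources used here. Exons of 13 members overlap another gene, so part of their counts is uncertain. Nkx6-2 (12.9% of exon length) lies under a gene on the opposite strand, Meis1 (18.3%) and Pitx1 (10.3%) share exon sequence with genes on both strands, and Alx1 (4.22%) with one on its own strand.

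Calls of 5 of the 27 genes rested on single libraries. Lhx1 lost its call without E14_ESC replicate 1 or 2 or without KO10_SL replicate 3. En2 and Irx3 did so without E14_ESC replicate 3 or KO10_SL replicate 2, Emx1 without KO10_SL replicate 3, and Alx1 without any 1 of the 6. Other marker lists moved with the knockout. All 10 PrE markers were called higher, with a sum of 1605 to 1887 CPM in the knockout against 139.6 to 168 in E14_ESC. Mesoderm markers had 5 of 8 tested called higher, with sums of 11.5 to 14.4 against 4.07 to 5.81 CPM, and trophoblast markers 3 of 6, with sums of 22.4 to 29.6 against 10.7 to 16.2 CPM. Neural markers had 1 of 7 tested called, lower, and summed to 118.1 to 126.2 CPM against 86.1 to 129.4. Fibroblast markers had 1 of 14 tested called higher, with sums of 115 to 124.4 CPM against 68 to 72 and with Postn, Dcn and Lum at or near 0, and macrophage markers 2 of 5, with sums of 5.81 to 7.36 against 4.13 to 10.7 CPM. The pluripotency markers had 1 of 8 called higher and 1 lower, and summed to 4317 to 4497 CPM in the knockout and to 3992 to 4090 CPM in E14_ESC. In bulk libraries more cells of a type and more RNA per cell cannot be told apart, and the part of these lists in the homeobox result was not tested.

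**Figure D2:**
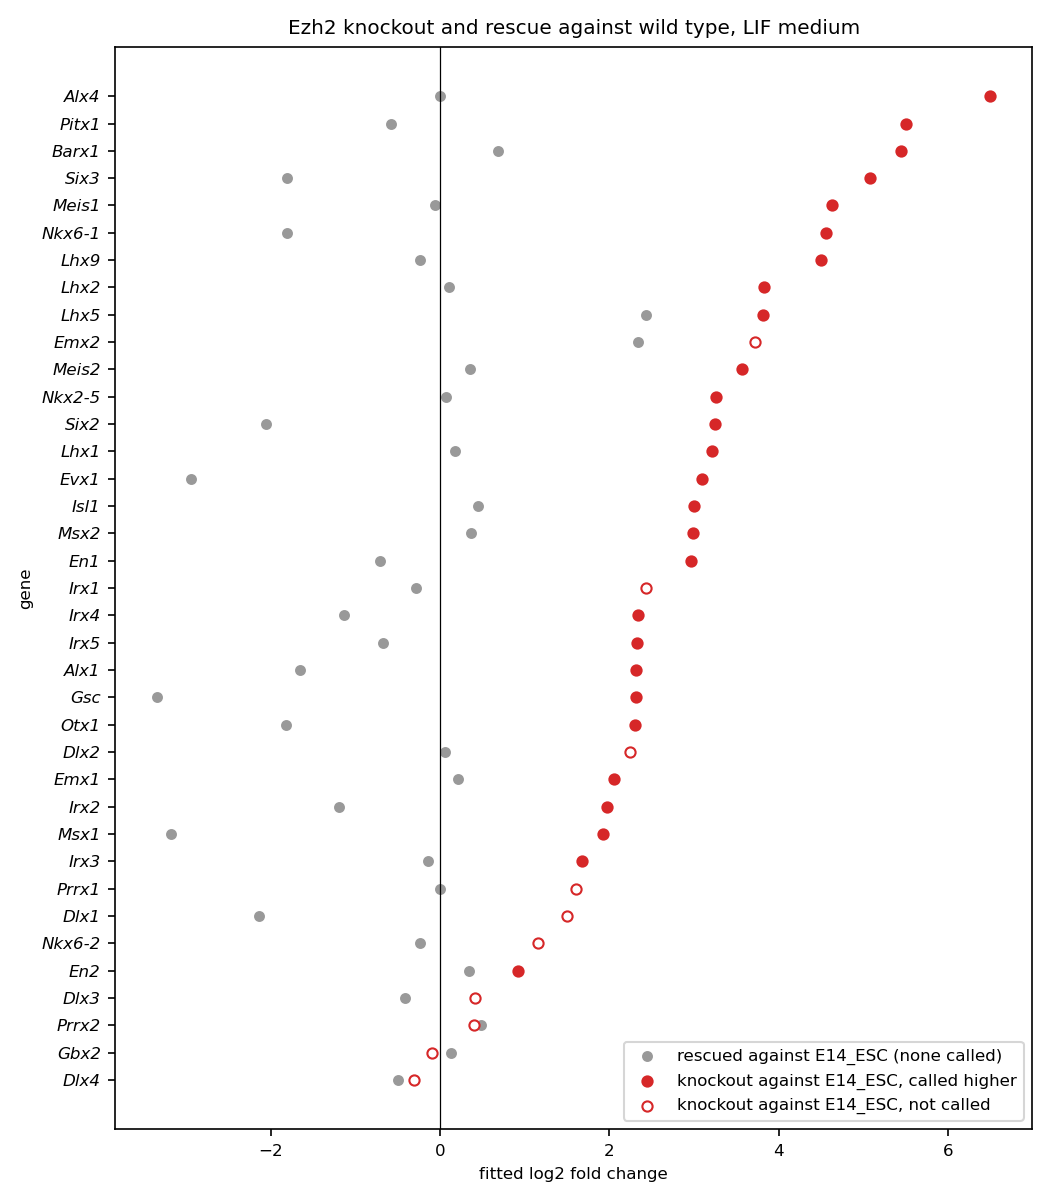
Fitted log2 fold change of the 37 tested genes against E14_ESC in the knockout (red, filled where called) and in the rescued clone (grey), sorted by the knockout change. The 27 called knockout points all lie to the right of 0, the grey points scatter around 0 with none called, and fitted values of genes with few counts are not bounds.

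The second wild-type set, TG2A_ESC, served as another reference for the same knockout libraries. Against it 17 members were called higher and 1 lower, where 13.6% and 14.1% of all tested genes were (27.7% in all). The median of the 37 was 2.01, against 0.02 over all genes. Both comparisons share the KO10_SL libraries, so their values are given side by side. Lhx2 changed by 3.53 ± 0.63 here and 3.83 ± 0.55 against E14_ESC, Meis1 by 3.09 ± 0.41 and 4.63 ± 0.40, Barx1 by 4.06 ± 0.70 and 5.44 ± 0.67, and Msx2 by 2.10 ± 0.29 and 2.99 ± 0.27. The 1 lower call was Gbx2, at 57.1 and 78.5 CPM in TG2A_ESC (log2 fold change -1.36 ± 0.20, adjusted p = 1.67e-04). The calls of Lhx9 and Gsc were lost without any 1 of the 5 libraries, those of Isl1 and Dlx3 without 4 of the 5, and those of Msx1 and Alx4 without either TG2A_ESC library. The 2 wild-type sets were also set against each other. In E14_ESC 5 of the 37 (13.5%) were called lower than in TG2A_ESC: Gbx2, Prrx2, Meis1, Nkx6-2 and Lhx5. None of the 37 was called higher. Of all tested genes 24.3% were called, 11.2% higher and 13.1% lower, so the lower share was close to that of all genes. Gbx2 was lower by -1.27 ± 0.20 on the log2 scale (adjusted p = 3.97e-04). The calls other than Gbx2 each depended on single libraries: Nkx6-2 was lost without any 1 of the 5, Prrx2 without any but TG2A_ESC replicate 1, Meis1 without TG2A_ESC replicate 2 or E14_ESC replicate 2 or 3, and Lhx5 without TG2A_ESC replicate 1 or E14_ESC replicate 2 or 3. Without E14_ESC replicate 2 or 3 the count of 5 dropped to 1, and to 3 without TG2A_ESC replicate 2.

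Rescue of the clone brought the levels down. Against KO10_SL, 25 of the 37 were called in KO10_SL_rescued, all lower, where 45% of all tested genes were called, 24.1% lower and 20.9% higher. The median log2 fold change was -3.19, against -0.11 over all genes. Meis2 was at 2 and 1.88 CPM (log2 fold change -3.21 ± 0.38, adjusted p = 5.31e-06), Meis1 at 0.222 and 0.321 CPM (-4.69 ± 0.48, adjusted p = 1.2e-06) and Msx2 at 0.832 and 0.911 CPM (-2.62 ± 0.31, adjusted p = 5.42e-06). Both rescued libraries lay below all 3 knockout libraries for each of these, as for 32 of the 37 and for 41.3% of all tested genes. Lhx2 was at 0.444 and 0.107 CPM, Barx1 at 0.333 and 0.0536 CPM, and Pitx1 at 0 and 0.107 CPM, with 2 counts over both libraries and a ratio of 0.0132 (counting interval 0.0016 to 0.0483). Evx1, Gsc, Msx1, Six2 and Lhx9 had 1 count each over both rescued libraries, and Nkx6-1, Six3 and Alx4 had 0. The falls were at least 6.73-fold for Nkx6-1, at least 9.76-fold for Six3 and at least 7.41-fold for Alx4.

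The genes called higher in the knockout that were not called lower after rescue were Lhx1, Lhx5 and En2. Their changes after rescue were -3.04 ± 1.22, -1.39 ± 0.80 and -0.58 ± 0.31 on the log2 scale, with adjusted p of 0.0521, 0.172 and 0.143. Dlx1 was called lower after rescue with a ratio of 0.072 (counting interval 0.00851 to 0.273). Gbx2 was at 25.4 and 35.9 CPM in the rescued libraries, overlapping its levels in KO10_SL. The marker lists that were higher in the knockout fell with them: 10 of 10 PrE markers were called lower after rescue, with sums of 195.1 and 186.2 CPM, as were 5 of 8 mesoderm markers (5.49 and 4.29 CPM) and 4 of 6 trophoblast markers (9.26 and 6.21 CPM). Their part in the result was not tested. Without rescued replicate 1 the count of lower calls was 16 in place of 25. Emx1 and Irx3 lost their calls without either rescued library or KO10_SL replicate 2 or 3, En1, Alx1 and Alx4 without either rescued library, Nkx2-5, Lhx9, Irx5 and Isl1 without rescued replicate 1, and Dlx1 without rescued replicate 2.

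The rescued clone was also set directly against wild type. No member was called in KO10_SL_rescued against E14_ESC by edgeR, where 0.108% of all tested genes were called (0.0285% higher and 0.0798% lower). At an unadjusted p below 0.05, 6 members differed, against 9.05% of all genes, and DESeq2 called 0. The smallest adjusted p was 0.254 (Msx1, at 0 and 0.0536 CPM after rescue and at 0.18, 0.12 and 0.523 in E14_ESC). The median of the 37 was -0.23, against 0.00 over all genes. These values do not show that the levels are equal, since most members were below 1 CPM in both groups. Ezh2 was 2.85 times as high in the rescued libraries as in E14_ESC.

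The knockout was also compared with wild type in 2i medium. In KO10_S2iL 17 of the 37 were called against TG2A_S2iL, all higher, where 30% of all tested genes were called, 15.7% higher and 14.3% lower. The median was 2.25, against 0.01 over all genes. Pitx1 was at 10.3 and 9.93 CPM in the knockout and at 0.48 and 0.175 CPM in the wild type (log2 fold change 4.92 ± 0.67, adjusted p = 8.5e-05). Meis1 was at 6.04 and 7.08 CPM against 0.66 and 0.584 (3.38 ± 0.44, adjusted p = 6.5e-05). Otx1 was at 5.38 and 5.84 CPM against 0.42 and 0.759 (3.23 ± 0.50, adjusted p = 2.16e-04). The knockout libraries were all higher for these 3 genes, as for 31 of the 37 and for 39.6% of all tested genes.

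Lhx2 was at 5.89 and 4.81 CPM against 0.48 and 0.526 (3.39 ± 0.63, adjusted p = 9.57e-04), Barx1 at 4.53 and 4.86 CPM against 0.54 and 0.175 (3.69 ± 0.72, adjusted p = 0.00134), and Irx3 at 3.37 and 3.93 CPM against 0.12 and 0.409 (3.75 ± 0.69, adjusted p = 8.67e-04). Irx1 had 0 counts in TG2A_S2iL and 36 in the knockout, at least 10.3-fold higher. The comparison with E14_ESC and the one in 2i share no library, but both use the same knockout clone. Of the 27 genes called higher in LIF medium 16 were called higher in 2i. Of the 17 called in 2i 16 were called in LIF medium, Irx1 being the other. The share of such an overlap over all genes was not computed. In 2i the PrE markers summed to 401 and 405.8 CPM in the knockout and 145 and 139.4 in the wild type, with 5 of 10 called higher. The knockout change in 2i less that in LIF medium, with TG2A_ESC as the LIF control, was called for 0 of the 10. The media themselves differed: 9 of 10 PrE markers were called lower in KO10_S2iL than in KO10_SL, where 17.3% of all genes were. In TG2A_S2iL 4 of 10 were called lower than in TG2A_ESC, where 11.6% of all genes were. Fibroblast markers summed to 183 and 189.7 CPM against 64.7 and 63.3, with 1 of 14 called higher, and trophoblast markers to 49.9 and 47.6 CPM against 18.2 and 14.6, with 4 of 6 called higher. Mesoderm markers summed to 14.5 and 14.9 CPM against 3 and 3.27, with 3 of 8 called higher, and macrophage markers to 13.9 and 11.7 CPM against 12.1 and 10.4, with 2 of 5 called higher. Their part in the homeobox result was not tested. Leaving out single libraries lowered the count of 17 to between 10 and 12. It was 11 without KO10_S2iL replicate 2, 11 without TG2A_S2iL replicate 1 and 10 without TG2A_S2iL replicate 2. The calls of Gsc, Isl1 and Six3 were lost without any 1 of the 4 libraries, and those of Irx1 and Msx2 without any but KO10_S2iL replicate 1.

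Whether the knockout change itself differed by medium was tested as the change in 2i less that in LIF medium, with TG2A_ESC as the LIF control. Of the 37, 1 was called (1.95% of all tested genes were, 0.838% higher and 1.12% lower): Meis2, by -2.79 ± 0.49 on the log2 scale (adjusted p = 0.00875). Meis2 was at 2.45 and 3.41 CPM in TG2A_ESC and at 16.6 and 18.4 CPM in TG2A_S2iL, and the knockout held 20.8, 16.5 and 16.4 CPM with LIF and 14.7 and 16.2 with 2i. Its wild-type levels in 2i lay within the range of the 5 knockout libraries, and the knockout change in 2i was -0.18 ± 0.35. The call was lost without either KO10_S2iL library or without TG2A_S2iL replicate 2 (adjusted p up to 0.0638). At an unadjusted p below 0.05 there were 4 members, where 16.7% of all genes were, and the other 36 members were not called, which does not show that their changes were equal.

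**Figure D3:**
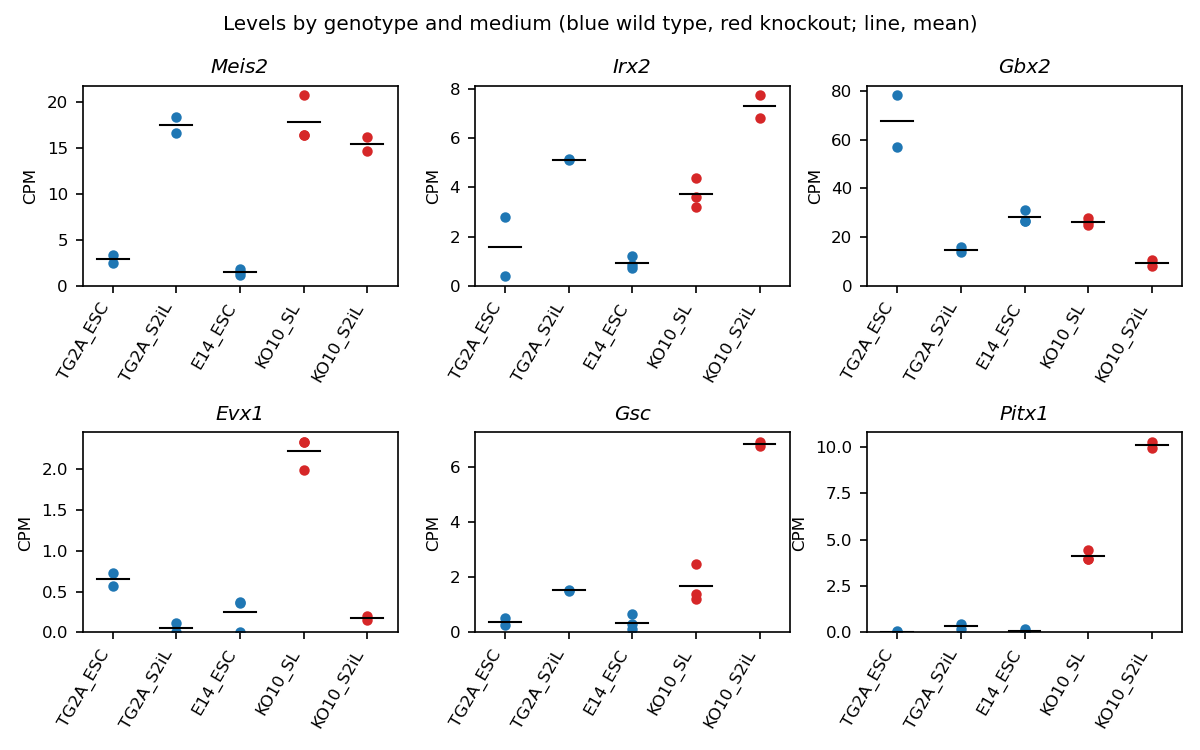
CPM of 6 homeobox genes by genotype and medium, 1 point per library and a line at the group mean, with blue for wild type and red for knockout. Meis2 is high in TG2A_S2iL and in both knockout groups, Gbx2 is lower in both 2i groups, Evx1 is high in KO10_SL and not in KO10_S2iL, and Gsc and Pitx1 are highest in KO10_S2iL.

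The media were also compared within each genotype. In TG2A_S2iL against TG2A_ESC, Meis2 was called higher (2.58 ± 0.38, adjusted p = 1.94e-04) and Gbx2 and Prrx2 lower. Of all genes 23.3% were called (11.7% higher and 11.6% lower). At an unadjusted p below 0.05 there were 8 members, where 35.8% of all genes were, and DESeq2 called 5. Of the 41, 7 reached 1 CPM in each TG2A_ESC library and 8 or 9 in the TG2A_S2iL libraries. The part of low counts in the number of calls was not tested. Gbx2 fell from 57.1 and 78.5 CPM to 15.8 and 14 (-2.18 ± 0.24, adjusted p = 1.95e-05). Prrx2 went from 3.49 and 6.81 CPM to 1.26 and 0.934 and was called at an adjusted p of 0.0497, which was lost without TG2A_ESC replicate 2 or without either TG2A_S2iL library. In the knockout, KO10_S2iL against KO10_SL gave 4 members higher (Gsc, Pitx1, Otx1 and Irx3) and 2 lower (Gbx2 and Evx1), where 36.9% of all genes were called (19.6% higher and 17.3% lower). Gsc was at 6.79 and 6.93 CPM in 2i (2.01 ± 0.59, adjusted p = 0.014). Evx1 was at 0.151 and 0.207 CPM in 2i (-3.58 ± 0.89, adjusted p = 0.00501), beside 0.12 and 0 CPM in TG2A_S2iL. Gbx2 was at 8.35 and 10.6 CPM (-1.48 ± 0.23, adjusted p = 1.01e-04). Leaving out any 1 of the 5 libraries left 1 to 3 calls, Gbx2 among them each time.

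In the PrE lines made with EPZ-6438 a part of the same family was on and Gbx2 was low. Against TG2A_ESC, 17 of the 37 were called higher and 4 lower in EPZ_iPrE1, where 27.9% and 32.2% of all tested genes were (60.1% in all). In EPZ_iPrE2, 17 were higher and 5 lower, where 28.8% and 33.4% of all genes were (62.2% in all). The median log2 fold change was 2.34 in EPZ_iPrE1 and 0.72 in EPZ_iPrE2, against -0.07 and -0.11 over all genes. The comparisons share the TG2A_ESC libraries, and each line's values are given side by side. Neural markers fell in both lines, with 6 of 7 called lower in each, and fibroblast markers had 4 and 5 of 14 called higher. Their part in the result was not tested. Per kilobase of exon, Msx1 was the most abundant member in both lines, at 6.52 and 5.42 CPM per kb.

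Msx1 was at 17.8 and 22.5 CPM in EPZ_iPrE1 and at 19.2 and 14.3 CPM in EPZ_iPrE2, against 0.312 and 0.314 CPM in TG2A_ESC. The log2 fold changes were 5.98 ± 0.54 (adjusted p = 6.56e-08) and 5.71 ± 0.53 (adjusted p = 9.76e-08). Msx2 was at 16.3 and 19.9 CPM and at 19.5 and 13.9 CPM, against 1.56 and 0.943, with changes of 3.84 ± 0.32 and 3.73 ± 0.32. Meis1 was at 10.4 and 12.6 CPM and at 17.8 and 9.67 CPM, against 0.572 and 1.1, with changes of 3.77 ± 0.43 and 4.03 ± 0.43. All PrE libraries lay above both ESC libraries for these genes, and the lines overlapped each other. In EPZ_iPrE1 this held for 23 of the 37 members and 36.3% of all tested genes. In EPZ_iPrE2 it held for 18 of the 37 and 36.4% of all tested genes. Pitx1 was at 9.06 and 10.2 CPM and at 6.94 and 4.21 CPM, with 1 count over both TG2A_ESC libraries. Its ratios were 369 (counting interval 65.6 to 14634) and 212.3 (37.6 to 8437).

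Nkx6-1, known from pancreatic islets and ventral neural progenitors, had 0 counts in TG2A_ESC and was at 2.92 and 2.18 CPM in EPZ_iPrE1 and at 1.24 and 1.38 CPM in EPZ_iPrE2, at least 32.6-fold and 16.7-fold higher. Lhx2 was at 4.38 and 2.26 CPM and at 1.92 and 2.96 CPM, with changes of 3.38 ± 0.66 and 2.94 ± 0.66. Otx1 was at 4.15 and 3.51 CPM and at 2.75 and 3.49 CPM, with changes of 3.09 ± 0.51 and 2.79 ± 0.51. Barx1 was at 4.38 and 3.35 CPM and at 1.37 and 2.96 CPM, with changes of 3.60 ± 0.73 and 2.76 ± 0.73. ESC libraries were below all of these. En2 rose from 4.63 and 5.87 CPM to 13 and 8.35 CPM in EPZ_iPrE1 (1.02 ± 0.34, adjusted p = 0.0158) and to 15.7 and 13.6 CPM in EPZ_iPrE2 (1.48 ± 0.34, adjusted p = 0.0012). Gbx2 fell to 1.92 and 2.11 CPM and to 3.02 and 1.64 CPM, by -5.07 ± 0.29 and -4.86 ± 0.29. Prrx2 fell to 3 counts over both EPZ_iPrE1 libraries and to 2 over both EPZ_iPrE2 libraries, with ratios of 0.0226 (counting interval 0.00461 to 0.0669) and 0.0131 (0.00157 to 0.0478).

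Some calls were made in 1 line alone, which is no test of a difference between the lines. Dlx1 was at 1.54 and 0.858 CPM in EPZ_iPrE1 and at 0.343 and 0.132 CPM in EPZ_iPrE2, against 0.156 and 0.21 in TG2A_ESC. Irx5 was at 2.53 and 1.09 CPM and at 0.412 and 0.461 CPM, against 0.26 and 0.419. Both genes were called higher in EPZ_iPrE1. Dlx3 was at 0.538 and 0.078 CPM in EPZ_iPrE1 and had 0 counts in EPZ_iPrE2, where it was called lower, against 1.04 and 0.472 CPM.

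The PrE and knockout comparisons share no library when the knockout is set against E14_ESC. Of the 27 members called higher in that comparison, 13 were called higher in both EPZ lines, out of 14 members higher in both. Meis2, Irx5 and Alx4 were called higher in 1 line, and Isl1 and Emx1 were called lower in 1 line. Shares of such overlaps over all genes were not computed. The remaining 9 were called in neither line: Nkx2-5, Lhx1, Lhx5, Lhx9, En1, Irx4, Alx1, Gsc and Evx1. Gsc was at 0 to 0.197 CPM in the 4 EPZ libraries and at 1.23 to 2.5 CPM in KO10_SL, and Lhx9 at 0 to 0.078 CPM and 0.763 to 0.981 CPM. Conversely Msx1, at 1.02 to 1.36 CPM in KO10_SL, was at 14.3 to 22.5 CPM in the EPZ libraries, and Emx2, at 0.0409 to 0.163 CPM in KO10_SL, was at 1.33 to 3.23 CPM. These levels were not compared by a test.

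The 2 EPZ lines were also set against each other. EPZ_iPrE2 against EPZ_iPrE1 had 0 of the 37 members called by edgeR, where 3.91% of all genes were called (1.75% higher and 2.16% lower). This does not show that the levels are equal, since few genes of any kind were called. At an unadjusted p below 0.05 there were 6 members, where 15.2% of all genes were, and DESeq2 called 1. The smallest adjusted p was that of Meis2, at 1.85 and 4.21 CPM in EPZ_iPrE2 and at 11 and 4.91 CPM in EPZ_iPrE1 (log2 fold change -1.39 ± 0.38, adjusted p = 0.0519). Calls were made after leaving out EPZ_iPrE1 replicate 2 (2 members) or EPZ_iPrE2 replicate 2 (1 member).

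Several calls in the EPZ lines rested on single libraries. In EPZ_iPrE1 the calls of En2, Dlx1, Meis2 and Irx5 were lost without replicate 1, the library with the higher fibroblast sum, and that of Six3 without replicate 2. Without TG2A_ESC replicate 1 those of En2, Dlx1 and Irx5 were lost, and without TG2A_ESC replicate 2 that of Irx3. Emx1, called lower, lost its call without any library but TG2A_ESC replicate 1. In EPZ_iPrE2 the calls of Six2, Irx2, Irx3, Irx1 and Prrx1 were lost without replicate 2, again the library with the higher fibroblast sum, and those of Six3, Irx1 and Isl1 without replicate 1. Without TG2A_ESC replicate 1 the calls of Six2, Six3, Irx1, Irx2 and Prrx1 were lost, and without TG2A_ESC replicate 2 those of Six3, Irx1, Irx3 and Prrx1. Isl1 was also lost without EPZ_iPrE2 replicate 2. Without the higher-fibroblast library of each line, an alternative chosen after seeing the data, 13 members were higher and 4 lower in EPZ_iPrE1, and 11 higher and 6 lower in EPZ_iPrE2.

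**Figure D4:**
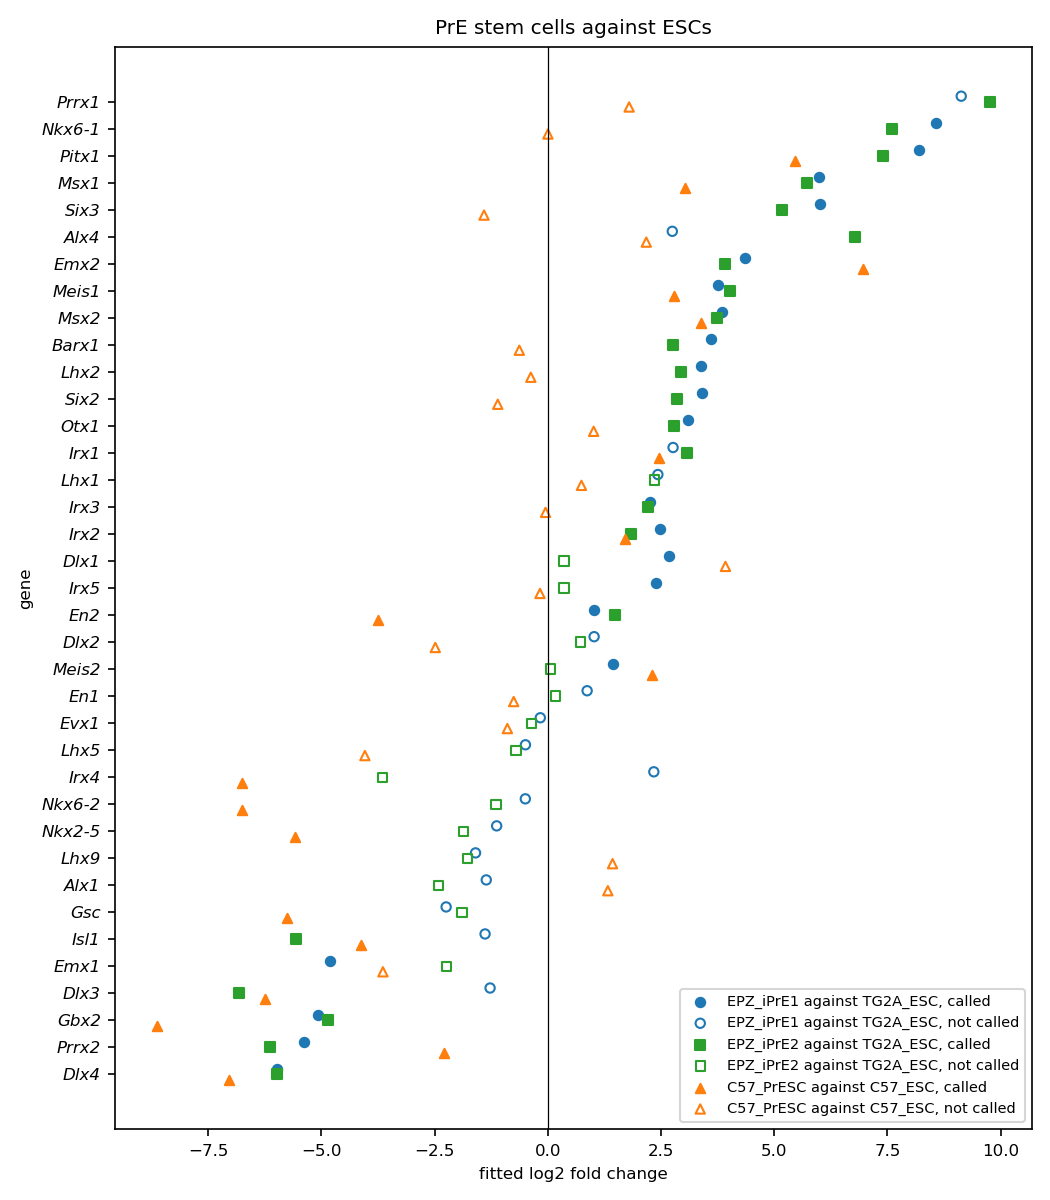
Fitted log2 fold change of the 37 tested genes in PrE stem cells against ESCs of their own comparison (circles EPZ_iPrE1, squares EPZ_iPrE2, triangles C57_PrESC; filled where called). Msx2, Meis1 and Pitx1 are filled to the right in all 3, Gbx2 and Dlx4 are filled to the left in all 3, and En2 lies on opposite sides.

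In the C57 PrE cells more members fell than rose, as was the case over all tested genes. Against C57_ESC 8 of the 37 were called higher and 10 lower, where 27.3% and 33.4% of all tested genes were (60.6% in all), so both shares (21.6% and 27%) were below those of all genes. The median was -0.37, against -0.09 over all genes. Emx2, a factor of cortex and urogenital tract, was at 15.4 and 18.6 CPM against 0.212 and 0.0505 (log2 fold change 6.96 ± 0.86, adjusted p = 8.73e-06). Per kilobase it was the most abundant member in C57_PrESC, at 5.65 CPM per kb. Msx2 was at 19.6 and 14.5 CPM against 1.48 and 1.77 (3.38 ± 0.31, adjusted p = 9.35e-08). Pitx1 was at 18.2 and 9.83 CPM against 0.583 and 0.0505 (5.46 ± 0.67, adjusted p = 2.86e-06). Meis1 was at 23.2 and 11.4 CPM against 2.01 and 2.98 (2.78 ± 0.39, adjusted p = 1.15e-05), and Meis2 at 7.45 and 11.6 CPM against 1.91 and 1.97 (2.29 ± 0.39, adjusted p = 7.59e-05). The pairs did not overlap for these 5 genes. Both C57_PrESC libraries lay above both C57_ESC libraries for 7 of the 37, and for 32.5% of all tested genes. They lay below for 11 of the 37, and for 38.8% of all tested genes.

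Gbx2 fell from 47.3 and 32.4 CPM to 3 counts over both C57_PrESC libraries, a ratio of 0.00237 (counting interval 4.88e-04 to 0.00693). En2 fell from 3.92 and 7.12 CPM to 0.203 and 0.582 CPM (-3.76 ± 0.44, adjusted p = 1.58e-06), the opposite of its rise in the EPZ lines. Nkx6-2 was at 7.58 and 0.707 CPM in C57_ESC, 2 libraries that also differed in their PrE marker sum (646.4 and 133.2 CPM), and had 1 count over the C57_PrESC libraries. Dlx3 had 1 count there as well, and Dlx4, Irx4, Gsc and Nkx2-5 had 0. The pairs overlapped for Nkx2-5, which was at 0.636 and 0 CPM in C57_ESC and was called at an adjusted p of 0.026.

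Prrx1, a factor of limb and facial mesenchyme, followed the fibroblast sum. It was at 0.542 and 67.3 CPM in the C57_PrESC pair, at 0.954 and 18.6 CPM in C57_ESC, at 6.76 and 0.78 CPM in EPZ_iPrE1 and at 1.3 and 10.5 CPM in EPZ_iPrE2. In each pair the library with more Prrx1 was the one with the higher fibroblast sum, and Prrx1 had 0 counts in E14_ESC, TG2A_ESC, TG2A_S2iL and the rescued libraries. It was not called in C57_PrESC (adjusted p = 0.344). Col1a1, a fibroblast collagen gene, was at 709 CPM in C57_PrESC replicate 2 against 7.79 in replicate 1, and Postn at 405 against 4.94. Irx1 was at 0.271 and 7.91 CPM, Irx2 at 4.67 and 12.8, Lhx9 at 0.135 and 1.11 and Alx4 at 0.135 and 1.05 CPM in that pair, each higher in replicate 2. The calls of Irx1 and Irx2 in C57_PrESC were lost without that library, and the change of Irx1 turned from 2.46 to -1.43. Macrophage markers were also uneven in this pair, with sums of 61.5 and 184.3 CPM, and 4 of 5 were called higher in C57_PrESC than in C57_ESC. All 7 tested neural markers were called lower there, with sums of 2.3 and 3.37 CPM against 79.4 and 185.1. The part of the fibroblast, macrophage and neural markers in these results was not tested. Of the 8 members called higher in C57_PrESC, Msx2, Meis1 and Pitx1 were higher in replicate 1, the library with the low fibroblast sum. Meis2, Emx2 and Msx1 were higher in replicate 2, as Irx1 and Irx2 were.

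**Figure D5:**
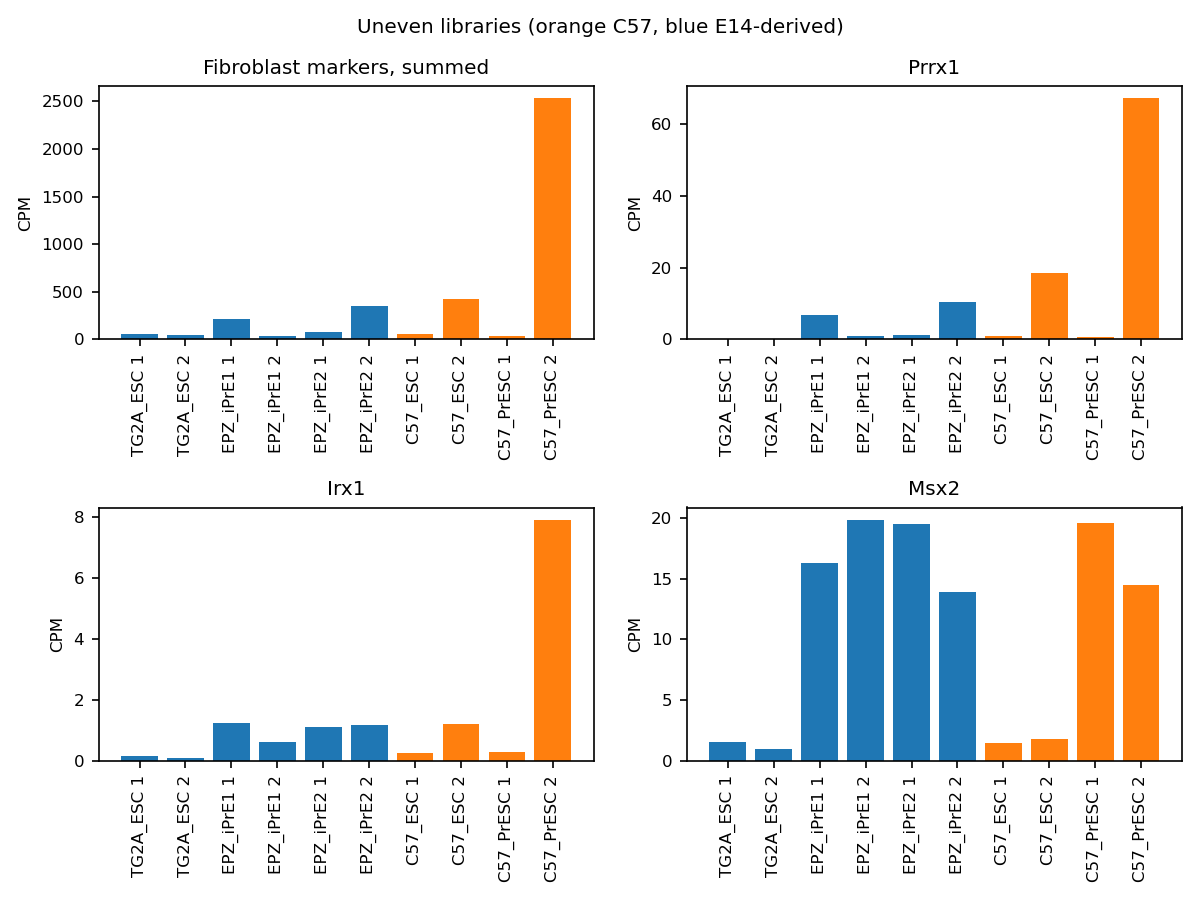
Summed CPM of the 15 fibroblast markers and CPM of Prrx1, Irx1 and Msx2 (bars, from 0) in the E14-derived PrE lines with their TG2A_ESC control (blue) and in the C57 libraries (orange). Prrx1 is high in the same 4 libraries as the fibroblast sum, Irx1 stands out in C57_PrESC replicate 2, and Msx2 is high in all 6 PrE libraries.

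Other C57 calls that rested on single libraries were those of Nkx2-5 (lost without C57_ESC replicate 1 or either C57_PrESC library), Prrx2 (without C57_ESC replicate 1 or C57_PrESC replicate 1), Gsc (without either replicate 2), and Irx1, Irx2 and Isl1 (without C57_ESC replicate 1). Without both replicate 2 libraries, an alternative chosen after seeing the data, 6 members were higher and 9 lower.

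The EPZ and C57 changes were then compared by a test of their difference, the change averaged over both EPZ lines less that in C57 cells. In it 13 of the 37 were called, 11 higher and 2 lower, where 35.1% of all genes were called, 18.8% higher and 16.3% lower. Of the 14 members called higher in both EPZ lines, 6 were also called higher in C57_PrESC: Msx1, Msx2, Meis1, Irx2, Pitx1 and Emx2. The other 8 (Nkx6-1, Lhx2, Six2, Six3, En2, Irx3, Otx1 and Barx1) were not, and for all 8 the EPZ change was above the C57 change by the test. Those 8 were picked by calls from the same libraries, which favours such a difference, so the test gives no separate support. The share over all genes picked this way was not computed. Lhx2 was at 0.542 and 0.698 CPM in C57_PrESC and 1.27 and 0.353 CPM in C57_ESC, and the difference was 3.53 ± 0.89 (adjusted p = 0.00537). Barx1 was at 0.406 and 0.524 CPM against 0.848 and 0.606, with a difference of 3.81 (adjusted p = 0.00696). En2 differed by 5.01 ± 0.54 (adjusted p = 3.73e-06), rising in one and falling in the other. Msx1, higher in both, differed by 2.83 ± 0.76 (adjusted p = 0.00807), with 1.96 and 2.73 CPM in C57_PrESC. Without TG2A_ESC replicate 2 the count of 13 was 8. The call of Lhx2 was lost without C57_ESC replicate 1, those of Six2, Six3 and Irx3 without C57_ESC replicate 2 among others, and that of Otx1 without any library but C57_ESC replicate 2 or C57_PrESC replicate 2. The differences between EPZ and C57 cells cannot be told apart from the strain of the cells and the way the lines were made.

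Among the other homeobox genes outside the Hox clusters, listed from the family and not by their change, 51 of 70 were tested. In KO10_SL against E14_ESC 28 were called higher (54.9%) and 6 lower (11.8%), where 25.8% and 22.7% of all tested genes were, and the median was 1.75 against 0.07 over all genes. Among the called genes were Nkx2-3, with 0 counts in E14_ESC and at least 19.9-fold higher, and Hlx, with 124 counts in the knockout and 1 in E14_ESC. Lmx1a, a factor of midbrain dopamine neurons, rose by 5.17 ± 0.47 (adjusted p = 4.59e-07). After rescue 3 were higher (5.88%) and 23 lower (45.1%) than in KO10_SL, where 20.9% and 24.1% of all genes were. In 2i the knockout had 16 higher (31.4%) and 5 lower (9.8%), where 15.7% and 14.3% of all genes were. In EPZ_iPrE1 12 were higher (23.5%) and 15 lower (29.4%), close to the 27.9% and 32.2% of all genes. In EPZ_iPrE2 10 were higher (19.6%) and 20 lower (39.2%), where 28.8% and 33.4% of all genes were, and in C57_PrESC 5 (9.8%) and 24 (47.1%), where 27.3% and 33.4% were. Of 13 PRC2 subunit genes, 2 (15.4%) were higher in KO10_SL than in E14_ESC, Epop among them by 1.95 ± 0.16, and 6 (46.2%) lower, where 25.8% and 22.7% of all genes were. The lower ones included Ezh2, Ezh1, the other methyltransferase, by -1.45 ± 0.17 (adjusted p = 4.25e-06), and Phf19 by -1.35 ± 0.41 (adjusted p = 0.0123).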

How the data were processed

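Poly-A or rRNA-depleted RNA (the labels name both) from 22 libraries was sequenced. Per the submitters' processing notes, Trim Galore, STAR 2.7.6a, DESeq2 and mm10 were used. The authors deposited estimated counts per gene symbol, unscaled. Counter, annotation and strandedness: not given in the sources used here. Values were rounded to whole numbers, since 5.71 to 7.26% of symbols per library were fractional, where raw counts had been planned for.

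In R 4.3.3, edgeR 4.0.16 kept genes by filterByExpr over the 10 groups, scaled by TMM and fitted all 22 libraries in a quasi-likelihood model of group means (12 residual degrees of freedom). The 14 comparisons are contrasts of it, with Benjamini-Hochberg adjustment over 17547 genes and calls at an adjusted p below 0.05. SE is the log2 fold change over the root of F. CPM uses TMM-scaled library totals. Folds against 0 counts use a floor of 3 counts over the group, and ratios on 1 to 3 counts have exact 95% intervals, for counting error only. The procedure was tested on data simulated for E14_ESC, KO10_SL and KO10_SL_rescued, with changed genes only above 1 CPM on average. That test does not cover changes in members below this level or the other groups.

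Exon lengths and overlaps are from GENCODE M21 (GRCm38), where all 41 members were found. DESeq2 1.42.0, other scaling, no filter, a replicate block, unrounded counts, the compared groups alone and left-out libraries were tried. The members and lists were chosen with earlier results of these data known. Values by library are given, in 1 or more comparisons, for members called with at least 1 CPM in the higher group (29 members), and other genes come from the lists, up to 4 per list. 1 listed gene is not reported here. Human cells and chromatin profiling were not used here.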

Additional observations from a re-analysis of the deposited data

Results flagged for a closer look

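Changes that differed between settings were picked out where the test of the difference itself passed. Meis2 differed in its knockout change between media, by -2.79 on the log2 scale (adjusted p = 0.00875).

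Between the EPZ lines and the C57 PrE cells, 13 of 37 members differed in their change against ESCs, a share equal to the 35.1% of all tested genes that did. The EPZ change was above the C57 change for Nkx6-1 (8.08, adjusted p = 6.9e-04), Six3 (6.99, adjusted p = 0.0198), En2 (5.01, adjusted p = 3.73e-06), Six2 (4.22, adjusted p = 0.0258), Barx1 (3.81, adjusted p = 0.00696), Lhx2 (3.53, adjusted p = 0.00537), Msx1 (2.83, adjusted p = 0.00807), Irx3 (2.29, adjusted p = 0.0387) and Otx1 (1.93, adjusted p = 0.0476). It was also above for 2 genes that did not rise in the EPZ lines. Gbx2 fell in all 3 PrE comparisons and fell further in C57_PrESC (difference 3.66, adjusted p = 2.35e-04). Nkx6-2 fell in C57_PrESC and was not called in the EPZ lines (5.94, adjusted p = 0.00191). The EPZ change was below the C57 change for Meis2 (-1.55, adjusted p = 0.0234) and Prrx2 (-3.47, adjusted p = 0.0413). The fitted differences of Nkx6-1 and Six3 rest on 0 counts in TG2A_ESC and are no bounds. Otx1 lost its call under most alternatives, and Prrx2 turned sign without C57_PrESC replicate 2.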

How the results depend on the processing

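Of 165 alternative counts of called members, 137 were within 1.5 times the main count. Of 2017 alternative values for 176 called gene results, 1763 kept direction and call, 251 kept direction and lost the call, and 3 reversed: Irx1 in C57_PrESC without C57_PrESC replicate 2 (-1.43; range over left-out libraries up to 3.94), and Prrx2 in the EPZ less C57 difference without that library (2.79; range from -5.59) or without both second C57 libraries (3.23). With single libraries left out, members called ranged from 24 to 26 for KO10_SL against E14_ESC, 13 to 16 against TG2A_ESC, 16 to 25 for the rescue against KO10_SL, 10 to 12 for the knockout in 2i, 0 to 1 for its difference between media, 1 to 3 for the knockout between media, 0 to 2 between the EPZ lines, 8 to 14 for EPZ less C57, and 1 to 4 between the wild-type sets. Without a filter on low counts, calls were 8 for TG2A_S2iL against TG2A_ESC (3 in the values reported), 3 between the EPZ lines (0) and 8 between the wild-type sets (5); with DESeq2 they were 5 and 1 for the first 2. With the compared groups alone they were 12 for the knockout between media (6), 9 for C57_PrESC (18) and 6 for EPZ less C57 (13). The cause was not tested. Correlations of the deviations of same-numbered replicates were -0.08 to 0.12 outside 2 comparisons. They were 0.30 for C57, where both second libraries have the higher fibroblast sum, and -0.53 between the EPZ lines. With only 2 pairs in each of those and no label that ties the numbers, they were not taken as pairs; a replicate block gave 3 calls for the knockout between media, 1 between the wild-type sets and 28 for KO10_SL against E14_ESC, moved no other count of calls by more than 1.5 times, and with the numbers of EPZ_iPrE2 crossed 0 between the EPZ lines. Most members lie below 5 CPM, so depth limits how small a change can be seen.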
